A study of Rattus norvegicus with 9 samples.

Results

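The cytosolic ribosomal protein genes encode the protein part of the ribosome, the particle that translates messenger RNA. Of 34408 gene rows measured in rat spleen, 80 were members of this family, 47 of the large and 33 of the small ribosomal subunit. Members were protein-coding rows named Rpl or Rps with a number, or Rplp0, Rplp1, Rplp2 or Rpsa, with at least 10 counts summed over the 9 libraries. Where several rows carried 1 symbol, the row with the most counts was taken. Rpl10a, Rpl23a, Rpl30l1 and Rpl39l, with 0, 0, 7 and 2 counts, fell below the minimum.

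RNA sequencing gave 9 libraries of wild-type rat spleen, labelled splenocytes as cell type, in 3 groups of 3. Control rats are labelled only as controls. TAA is thioacetamide, a toxin that scars the liver. TAA rats were injected intraperitoneally with 200 mg/kg once in every 3 days over 8 weeks, and then with 100 mg/kg over a further 8 weeks. TAA+celecoxib rats had the same TAA course and took celecoxib, an inhibitor of cyclooxygenase 2, at a daily 20 mg/kg in the second 8 weeks. The series' title names cirrhotic splenomegaly and a protective role of the drug. The labels give no strain, sex or age and do not say whether each library is a separate animal, so p-values measure the spread between these libraries. No group received celecoxib without TAA. Bulk RNA cannot tell fewer cells of a type from less RNA per cell.

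Each ribosome holds 1 copy of nearly every ribosomal protein, and the stalk proteins P1 and P2 are the exception. Cells make the proteins in balanced amounts, and growth signals through mTOR and MYC raise their output. Much of that control acts on a run of pyrimidines at the first bases of the message, the terminal oligopyrimidine tract, which lets mTOR switch translation of all these messages together. Free L5 and L11, bound with 5S ribosomal RNA, inhibit Mdm2 and so stabilise p53. Spleen lymphocytes raise ribosome production when they are activated, and mutations of many of these genes cause Diamond-Blackfan anaemia, a failure of red cell production.

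Some of the family's start sequences show the tract at the annotated start. RefSeq promoter windows of the assembly GRCr8 were found for 62 member symbols with 63 entries. The 30 bases printed run from 10 before the annotated start to 20 from it, 5′ to 3′ on the transcript's strand, with capitals for a run of at least 5 C or T that opens with C at the start itself. The first lines are 4 members of high or steady level with a tract.
Rplp1, chr8:71290853-71290882, minus strand: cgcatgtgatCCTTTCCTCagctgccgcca
Rps15, chr7:10068096-10068125, minus strand: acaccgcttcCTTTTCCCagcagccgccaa
Rplp0, chr12:46718371-46718400, minus strand: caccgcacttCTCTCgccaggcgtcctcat
Rpl10, chrX:157205840-157205869, plus strand: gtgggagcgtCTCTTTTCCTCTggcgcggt
The next lines set the main gene beside its paralogue, a second gene for a like protein, for S27 and L3, followed by the paralogues of L7 and L22.
Rps27, chr2:177964587-177964616, minus strand: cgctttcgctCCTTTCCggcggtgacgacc
Rps27l, chr8:76443648-76443677, plus strand: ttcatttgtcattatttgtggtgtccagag
Rpl3, chr7:113507971-113508000, minus strand: gcctgctcgatctctatcggcggcgtgtgg
Rpl3l, chr10:14258436-14258465, plus strand: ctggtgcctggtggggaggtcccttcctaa
Rpl7l1, chr9:21695708-21695737, plus strand: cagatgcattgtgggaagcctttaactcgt
Rpl22l1, chr2:113683186-113683215, plus strand: gtggatatccggttccgagttgcgcagcgc
The last lines are the laminin receptor gene, a member of high level and a 5S partner, whose windows show no tract at the annotated start.
Rpsa, chr8:128728869-128728898, plus strand: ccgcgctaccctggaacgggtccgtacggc
Rpl41, chr7:1563478-1563507, minus strand: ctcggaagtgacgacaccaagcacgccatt
Rpl11, chr5:153560783-153560812, minus strand: cttgaagcttgtttggtgctggggagcatc

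A tract at the start was present in 20 of the 63 member entries (31.7%) and in 881 of all 33469 promoter entries (2.63%), members included. With the run allowed to begin within 5 bases of the start, the shares were 37 of 63 (58.7%) and 17.0%. The letters CTCTTT stood in 22.2% of the member windows against 1.09% of all, and CTTTCC in 20.6% against 1.15%. Both were searched on the transcript's strand only and can lie inside a tract. The 4 paralogue windows printed (Rps27l, Rpl3l, Rpl7l1 and Rpl22l1) held no tract at or near the start, and neither did the main gene Rpl3. The window of the paralogue Rps4y2, not printed, held a run near the start but none at it. Rpl41, Rpsa and Rpl11 held none at or near the start. The annotated starts were not checked against the first bases of transcripts.

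Levels between genes were compared as FPKM, the authors' values scaled for gene length and sequencing depth. The highest mean over the 9 libraries was that of Rplp1, the acidic stalk protein P1, at 3733 ± 1014 FPKM (SD, n = 9). Rps15 stood at 3237 ± 765, Rpl41, the smallest ribosomal protein, at 3235 ± 987, and Rplp0, the base of the stalk, at 2945 ± 625 FPKM. Rpl36 stood at 2875 ± 890 and Rpl13 at 2831 ± 852 FPKM. Neighbours in this order differed by less than their SDs. The lowest were Rpl10l at 5.89 ± 2.45, Rpl3l at 1.2 ± 0.459, Rplp2 at 0.835 ± 0.650 and Rps10l1 at 0.661 ± 0.495 FPKM.

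Such low values did not all belong to little-used genes, because ribosomal proteins have many near-identical copies in the genome. The table held 223 rows for 87 ribosomal proteins, paralogues and the ribosome-bound Rack1, and 143 of them were not members. The member rows held 84.4% of the counts of all 223. For 54 of the 78 proteins with a member, that row held at least 90% of the protein's counts, for 13 it held 50% to 90%, and for 11 under 50%. The Rpl9 row had 917 counts, 0.493% of those named for L9, while another row, LOC100360449, had 181753. Rps29 held 0.391%, Rpl39 2.12% and Rplp2 0.0896% of its protein's counts. A row was taken as the gene itself where at least 3 named genes, of the 10 before and 10 after it together, also stood beside the RefSeq gene. By that check 70 members stood at their RefSeq locus, with a median of 141736 counts summed over the libraries. The 9 that did not (Rpl9, Rpl35a, Rpl37, Rpl38, Rpl39, Rps10l1, Rps13, Rps18l1 and Rps29) had a median of 917, and 1, Rpl10l, had no RefSeq gene. The row named Rps19l2 had the neighbours of Rps19. Reads can be split between copies, so values of rows with copies are uncertain, and the row LOC100911847 for S14 and an unnamed row for S26, with 178152 and 147869 counts, stood at the RefSeq loci of genes that the naming rule missed. These rows were singled out after their values were seen.

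Library totals ran from 14211789 to 19014761 counts. Levels between libraries are given as CPM, the usual depth-scaled count, after TMM scaling. Of the listed markers, the summed T cell genes stood at 864 to 1573 CPM and the B cell genes at 2236 to 4360, so spleen lymphocytes were represented in every library. Control 1 and TAA+celecoxib 1 stood apart with macrophage sums of 2639 and 2080 CPM against 4139 to 8068 in the other 7, and endothelial sums of 360 and 359 against 708 to 1124. Hepatocyte genes summed to 116 CPM in control 1 and 935 in TAA 1 and to at most 1.54 elsewhere. Erythroid sums were highest in TAA 1 (4557 CPM) and TAA+celecoxib 2 (5519), and lowest in control 3 (184).

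The family made up 9.45%, 7.64% and 7.56% of the counts in control 1, 2 and 3, a mean of 8.22 ± 1.07% (SD, n = 3). In the TAA libraries the shares were 6.81%, 7.23% and 5.40% (6.48 ± 0.959%), and in TAA+celecoxib they were 10%, 5.35% and 7.05% (7.48 ± 2.38%). All 3 TAA shares lay below all 3 control shares, whereas the TAA+celecoxib libraries held both the highest and the lowest share of the 9. With 3 libraries against 3 the smallest p that an exact 2-sided permutation test allows is 0.1, so these shares cannot pass a threshold of 0.05. The ratio of small to large subunit counts ran from 0.655 in TAA 3 to 0.746 in control 1.

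**Figure D1:**
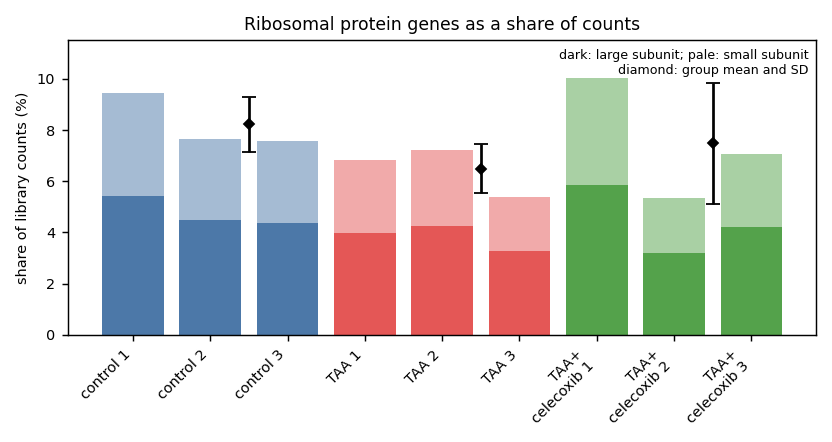
Share of each library's counts held by the 80 ribosomal protein genes (percent), split into large subunit (dark) and small subunit (pale). Diamonds and bars give the group mean and SD over 3 libraries, and the TAA+celecoxib group spans 5.35% to 10%.

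Between libraries the members moved as a block. Of the 80 genes, 78 passed the filter on low counts (Rplp2 with 45 and Rps10l1 with 56 counts did not) and were fitted among 15954 genes. Against their own means over the 9 libraries on the log2 CPM scale, the median member lay 0.42 higher in control 1 and 0.53 higher in TAA+celecoxib 1. It lay at -0.44 in TAA 3, -0.38 in TAA+celecoxib 2 and -0.11 in TAA+celecoxib 3, and between -0.02 and 0.07 in the other 4. Control 1 held 73 of the 78 above their own mean and TAA+celecoxib 1 held 74, while TAA 3 held 2 and TAA+celecoxib 2 held 7. The highest value of a gene fell in TAA+celecoxib 1 for 50 members and in control 1 for 20, and the lowest in TAA 3 for 40 and TAA+celecoxib 2 for 30. Over all genes tested, the median deviation of a library lay between -0.01 and 0.04. Other lists leaned the same way in these libraries. Mitochondrial ribosomal protein genes, which serve another ribosome, had medians of 0.25 in control 1, 0.26 in TAA+celecoxib 1, -0.28 in TAA 3 and -0.16 in TAA+celecoxib 2, with 67, 69, 6 and 13 of 74 above their own mean. Listed translation factors and partners, known for a start tract, had 0.18, 0.38, -0.24 and -0.20 in the same libraries. T cell markers had 0.54, 0.45, -0.69 and -0.34, and B cell markers 0.18, 0.58, -0.31 and -0.39. Both libraries with the highest ribosomal protein values were those with the lowest macrophage and endothelial sums. TAA 3 had the highest macrophage sum and, at 2406 CPM against 94.4 to 852 in the rest, the highest neutrophil sum. TAA+celecoxib 2 had the highest erythroid sum, 5519 CPM. TAA 1 came next with an erythroid sum of 4557 CPM, and there the median member lay at -0.01. The part of these cell types in the pattern was not tested.

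**Figure D2:**
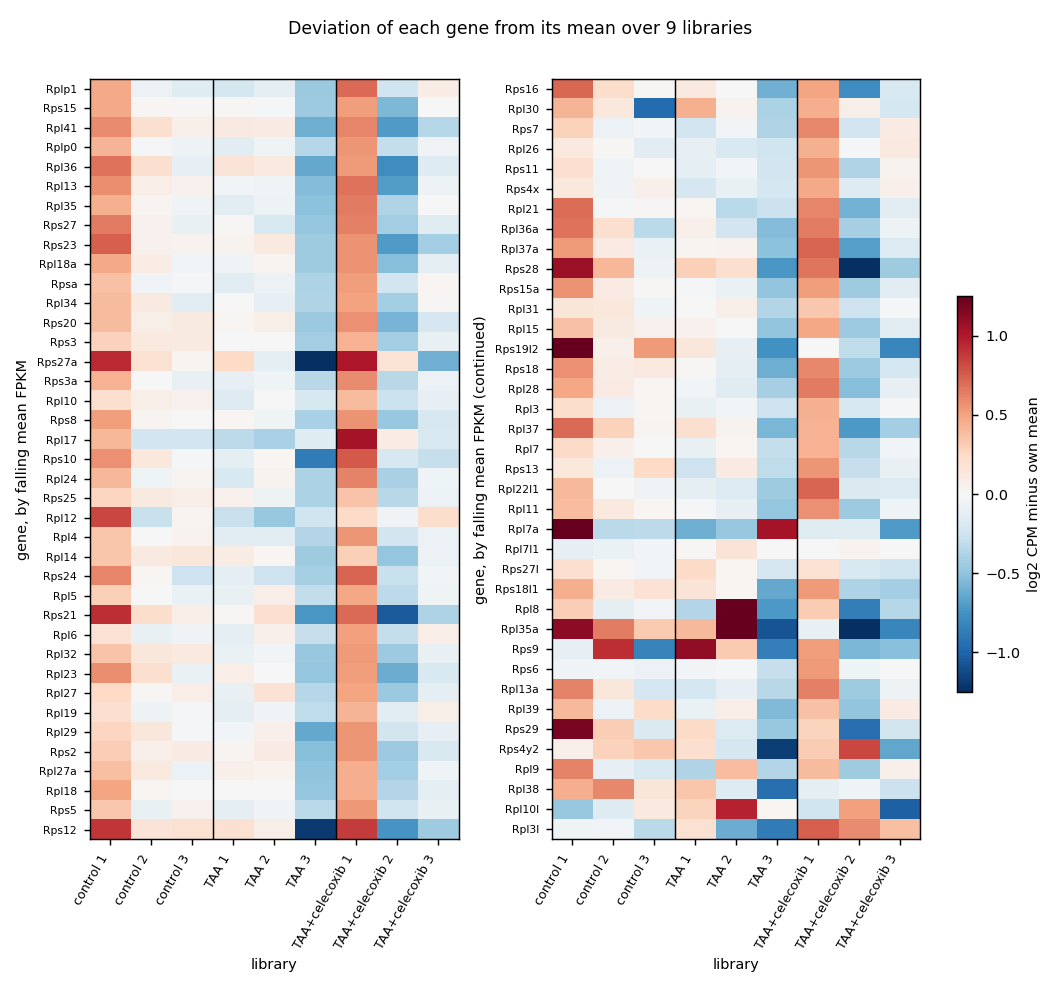
Deviation of the tested genes, all but 1 of the 78, from their own means over the 9 libraries (log2 CPM), one row per gene from high to low mean FPKM and one column per library, with black lines between groups; the darkest shades also hold values beyond the scale. The columns of control 1 and TAA+celecoxib 1 are red for most genes (73 and 74 of 78 above their mean), and those of TAA 3 and TAA+celecoxib 2 are blue.

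The pattern was shared by long and short members. Genes with a length of 1000 bases or more had medians of 0.36 in control 1, 0.53 in TAA+celecoxib 1 and -0.37 in TAA 3, and those under 600 bases had 0.53, 0.54 and -0.48. Genes outside the family with lengths under 600 bases leaned the same way by less, with 0.16, 0.08 and -0.08. Those of 600 to under 1000 bases had 0.18, 0.13 and -0.13, and those of 1000 bases or more leaned by at most 0.03 in any library. In TAA 1 the classes under 600 and of 600 to under 1000 bases stood at 0.14 and 0.10, where the median member lay at -0.01. The median SD of a member over the 9 libraries was 0.362 on the log2 scale, against 0.308 over all genes tested. For the 69 tested members at their RefSeq locus it was 0.358, and 0.134 once each library's median member value had been taken off. The 2120 other genes at or above the 10th percentile of these members' mean log2 CPM had a median SD of 0.188 with nothing taken off. That set has a lower bound only and was not matched to the members in level.

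The steadiest member was Rpl7l1, a paralogue of Rpl7 that acts in ribosome assembly, with an SD of 0.077. Its 9 values were 63.6, 64.5 and 66.6 CPM in control, 69.0, 76.4 and 68.1 in TAA and 68.5, 70.8 and 68.8 in TAA+celecoxib. Rps27l, a paralogue of Rps27, followed with 0.19, and Rpl31, at the exit of the peptide tunnel, and Rpl10, which closes the late steps of large subunit assembly, each had 0.21. At the other end stood Rpl35a (1.07), Rps27a (0.86), Rpl7a (0.83) and Rpl8 (0.80), each with counts spread over several rows.

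The first comparison, TAA against control, asks what the toxin course did in spleen. Of the 78 members 73 were fitted lower and 5 higher under TAA. Their log2 fold changes had a median of -0.33, against 0.0017 over all genes tested, and none passed the test. By edgeR's quasi-likelihood test with Benjamini-Hochberg adjustment 0 of 15954 genes had an adjusted p under 0.05 (0% called), and the smallest adjusted p of a member was 0.788. At an unadjusted p under 0.05 stood 2 members, Rpl12 and Rps19l2, 2.56% of the 78 against 6% of all genes, and DESeq2 also called 0 members, though 50 genes. Groups that did not overlap, lower in TAA, were found for 17 of the 78 members (21.8%) against 7.89% of all genes, among them Rpl4, Rpl10, Rpl11, Rpl13, Rpl14, Rpl15, Rpl22l1, Rpl28, Rpl32, Rpl35, Rps3, Rps4x, Rps15a, Rps18, Rps25 and Rpsa, named here by that criterion. Rpl7l1 was the 1 member that lay higher without overlap (1.28%, against 6.94% of all genes). Since members move together these are not 17 separate observations. Scaled by library totals alone, 31 members (39.7%) lay lower and 0 higher, against 9.31% and 5.41% of all genes. Without control 1 the median was -0.18 and without TAA 3 it was -0.20, against -0.33 with all libraries. The summed T cell genes also lay lower in every TAA library, at 864 to 1052 CPM against 1241 to 1573 in control. Macrophage sums lay higher, at 5471 to 8068 CPM against 2639 to 4948, and so did neutrophil sums, at 497 to 2406 against 94.4 to 373, with 11 of 11 neutrophil markers tested fitted higher (median 2.22). Erythroid markers were fitted higher for 12 of 13 (median 2.53) and cell division markers for 17 of 17 (median 0.69). Their sums overlapped between the groups, at 564 to 4557 CPM in TAA against 184 to 887 in control, and at 1010 to 1781 against 718 to 1174. The part of these cells was not tested.

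Rps18, a protein of the small subunit head, stood at 2407, 1727 and 1757 CPM in control and at 1638, 1494 and 1060 in TAA. Each TAA value lay below each control value, with a log2 fold change of -0.49 (SE 0.296, edgeR adjusted p = 0.788). Rpl32 stood at 1086, 935 and 926 CPM in control and at 801, 827 and 609 in TAA, a log2 fold change of -0.40 (SE 0.244, adjusted p = 0.788). Rps15a gave 1484, 1085 and 1014 CPM against 987, 948 and 717 (log2 fold change -0.43, SE 0.267). Rpsa, the small subunit protein that is also known as the laminin receptor, gave 3078, 2321 and 2341 against 2173, 2265 and 1823 CPM (-0.31, SE 0.220). These genes share 1 picture, in which control 1 is high, TAA 3 is low and the other 4 libraries lie closer together.

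Rps19l2, at the locus of the anaemia gene Rps19, had the smallest p of any member, with 780, 344 and 477 CPM in control and 362, 305 and 194 in TAA. TAA 1 lay inside the control range. The log2 fold change was -0.89 (SE 0.346, edgeR adjusted p = 0.788). Rpl12, part of the stalk base, stood at 1709, 793 and 987 CPM in control and at 793, 693 and 809 in TAA (-0.60, SE 0.260), where control 1 alone was far from the rest. Rps29 (-0.67, SE 0.436) and Rps27a (-0.78, SE 0.557) had the next lowest fitted values. The highest were those of Rpl8 (0.67, SE 0.621), Rpl10l (0.64, SE 0.430) and Rps9 (0.22, SE 0.568). For Rpl8, 1 library carried the value: TAA 2 stood at 143 CPM against 30.6 and 23.9 in the other TAA libraries and 36.2 to 48.9 in control.

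**Figure D3:**
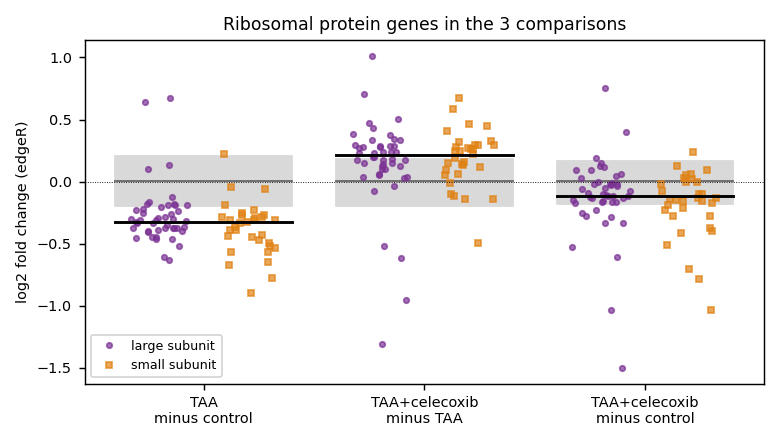
Fitted log2 fold change (edgeR) of each of the 78 tested members in the 3 comparisons, circles for the large and squares for the small subunit, with a black line at the members' median (-0.33, 0.21 and -0.12). The grey band spans the quartiles of all 15954 genes and the grey line their median; the 3 comparisons share libraries.

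The comparison of TAA+celecoxib with TAA isolates the drug on top of the toxin. It shares the TAA libraries with the comparison above. Of the 78 members 66 were fitted higher and 12 lower, with a median of 0.21 against 0.0071 over all genes, and none passed edgeR's test (0% of all genes called, smallest adjusted p of a member 0.890). Unadjusted p-values under 0.05 were found for 2 members, Rpl26 and Rpl3l (2.56%, against 5.09% of all genes), and DESeq2 called 0 members and 22 genes. Only 3 members, 3.85%, lay higher without overlap, Rpl12, Rpl26 and Rpl3l, against 5.87% of all genes, and 0 lay lower, against 5.03%. With library totals alone 4 members (5.13%) lay higher and 0 lower, against 4.35% and 5.42% of all genes. The direction rested on 1 library: without TAA+celecoxib 1 the median was -0.08, and without TAA+celecoxib 2 it was 0.40. Without TAA 3 it was 0.10. In the same comparison 14 of 15 T cell markers were fitted higher (median 0.63), and 5 of the 15 lay higher without overlap, against 5.87% of all genes. All 12 of 12 macrophage markers were fitted lower (median -0.82). The macrophage sums of 2080 to 4541 CPM lay below the 5471 to 8068 of TAA, and the part of these cells was not tested.

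Rpl26, which in stressed cells also binds the message of p53, stood at 1282, 1209 and 1155 CPM with TAA alone and at 1875, 1353 and 1494 in TAA+celecoxib (log2 fold change 0.37, SE 0.154, edgeR adjusted p = 0.890). The control values of 1494, 1390 and 1245 overlapped both groups. Rpl17, beside the peptide exit tunnel, had 975, 925 and 1098 CPM in TAA and 2516, 1303 and 1074 in TAA+celecoxib (0.71, SE 0.321), and TAA+celecoxib 3 lay inside the TAA range. Rplp1 stood at 2518, 1729 and 1638 CPM in control, 1559, 1668 and 1314 in TAA, and 2971, 1531 and 1937 in TAA+celecoxib. Its log2 fold change with the drug was 0.50 (SE 0.267). Rps4x gave 1161, 1260 and 1152 CPM in TAA and 1863, 1203 and 1400 in TAA+celecoxib (0.32, SE 0.170).

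For TAA+celecoxib against control, which shares libraries with both comparisons above, 60 members were fitted lower and 18 higher with a median of -0.12, against 0.0012 over all genes. None passed edgeR's test (0% of all genes called, smallest adjusted p of a member 0.911), DESeq2 called 0 members and 26 genes, and 2 members (2.56%, against 5.03% of all genes) had an unadjusted p under 0.05, Rpl35a and Rps19l2. Lower without overlap were 3 members, 3.85% against 4.42% of all genes: Rpl35a, Rpl38 and Rps19l2. The Rpl38 row, not at its RefSeq locus, had 202 counts in all, 13.2% of those of L38. The 5 rows of L38 together gave 18.9, 8.34 and 8.82 CPM in control and 8.80, 6.59 and 5.07 in TAA+celecoxib, with overlap. Higher without overlap were 2, Rpl3l and Rpl7l1, 2.56% against 5.27%. With library totals alone 3 lay lower (3.85%, against 6.26% of all genes) and 1 higher (1.28%, against 3.51%). The median was 0.02 without control 1, 0.08 without TAA+celecoxib 2, -0.04 without TAA+celecoxib 3 and -0.42 without TAA+celecoxib 1. Rps19l2 stood at 331, 264 and 187 CPM in TAA+celecoxib, each below the lowest control value of 344, with a log2 fold change of -1.03 (SE 0.347, edgeR adjusted p = 0.911). The 5 rows of S19 together gave 986, 552 and 638 CPM in control, 525, 502 and 291 in TAA and 541, 361 and 397 in TAA+celecoxib, so every treated library also lay below every control in the sum. Rpl37 had the fitted value -0.52 (SE 0.324) with values of 85.4 to 189 CPM in TAA+celecoxib against 144 to 230 in control. Rps6 had the third highest of all members, 0.24 (SE 0.170).

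By subunit the medians were alike. The 46 tested members of the large subunit had medians of -0.31, 0.20 and -0.11 in the 3 comparisons in the order given, and the 32 of the small subunit -0.35, 0.23 and -0.14. The stalk pair Rplp0 and Rplp1 is the docking site of the elongation factors. Rplp0 stood at 4271, 3163 and 3052 CPM in control, 2904, 3071 and 2490 in TAA, and 4666, 2600 and 3090 in TAA+celecoxib. Its log2 fold changes were -0.31 (SE 0.241), 0.29 (SE 0.241) and -0.02 (SE 0.241). The 5S partners Rpl5 and Rpl11 differed in that the TAA and control values of Rpl11 did not overlap. Rpl11 gave 1098, 913 and 855 CPM in control, 828, 783 and 599 in TAA and 1248, 613 and 808 in TAA+celecoxib, and Rpl5 gave 2126, 1723 and 1626, then 1614, 1826 and 1397, then 2413, 1375 and 1660. Whether the 2 genes' changes differ from each other was not tested. Of the 20 listed Diamond-Blackfan genes 18 were tested, and 17 were fitted lower in TAA than in control, with 0 called in any comparison. Their median of -0.35 lay beside the -0.33 of all tested members, of which 73 of 78 were fitted lower. Among the 18, the rows Rps29 and Rpl35a are not at their RefSeq locus. Rps19 and Rps26 had no member row of that name and were left out of this list's count.

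Rps6, whose protein is the classic target of S6 kinase, stood at 31.6, 31.9 and 31.1 CPM in control, 31.9, 32.4 and 26.7 in TAA and 47.3, 31.4 and 32.8 in TAA+celecoxib. All but TAA 3 and TAA+celecoxib 1 lay within 31.1 to 32.8 CPM. At 43.9 ± 7.04 FPKM (SD, n = 9) it was far below the family's high levels, and a second row near the RefSeq Rps6 locus, LOC100911372, held 10008 of the 14853 counts of both rows. The S14 row LOC100911847 gave 1620, 1331 and 1255 CPM in control, 1167, 1341 and 791 in TAA, and 1531, 884 and 1011 in TAA+celecoxib. Tested rows of this kind, at RefSeq loci but outside the naming rule, numbered 14, and their medians of -0.36, 0.30 and -0.14 lay beside those of the members.

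The paralogues did not share 1 pattern. Rpl7l1 lay higher in TAA than in control in each library by a small margin, with a log2 fold change of 0.13 (SE 0.092, edgeR adjusted p = 0.790), where Rpl7 had -0.22 (SE 0.205). Rps27 stood at 1351, 890 and 808 CPM in control, 869, 754 and 617 in TAA and 1333, 636 and 775 in TAA+celecoxib. Rps27l, a p53 target, kept to 44.4 to 62.5 CPM in all 9 libraries, with log2 fold changes of -0.04 (SE 0.162), -0.10 (SE 0.162) and -0.14 (SE 0.162). Rpl22l1 varied with the family, at 177, 133 and 129 CPM in control, 123, 119 and 98.3 in TAA and 221, 118 and 119 in TAA+celecoxib. Rpl3l, a striated muscle form of L3, was near the detection limit at 1.48, 1.5 and 1.2 CPM in control, 1.78, 0.959 and 0.783 in TAA and 2.66, 2.38 and 2.03 in TAA+celecoxib. All 3 TAA+celecoxib values lay above the other 6, with a log2 fold change of 1.01 (SE 0.366, edgeR adjusted p = 0.890) against TAA and 0.76 (SE 0.360) against control. The row had 238 counts in all. Rpl10l and Rps4y2 varied from 1.69 to 7.05 and from 5.27 to 21.7 CPM with groups that overlapped.

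**Figure D4:**
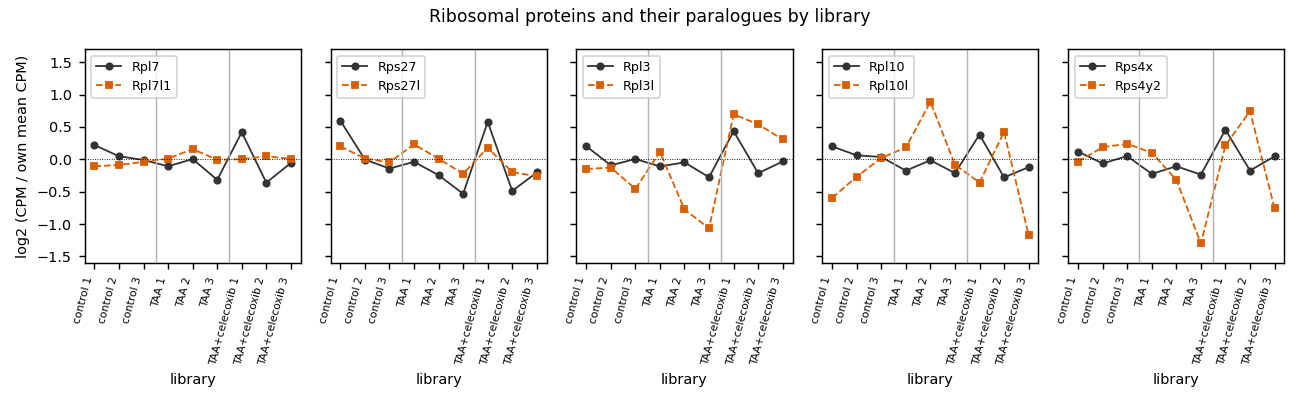
Level of 5 ribosomal proteins (circles, solid line) and their paralogues (squares, dashed line) in the 9 libraries, as log2 of CPM over the gene's own mean CPM. Lines only join libraries, which have no order within a group; Rpl7l1 keeps within 63.6 to 76.4 CPM while Rpl7 follows the family.

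For several members the rows of 1 protein moved against each other between libraries. The table holds 2 rows named Rpl7a, at 3:4867233-4869656 and 3:5459160-5461583 in the files' coordinates, both 2424 bases long and both with the neighbours of the RefSeq gene. The member row stood at 309, 73.5 and 73.8 CPM in control, 60.6, 66.9 and 191 in TAA and 83.4, 83.4 and 56.6 in TAA+celecoxib. The second row stood at 60, 66.5 and 62.0, then 47.7, 49.5 and 62.2, then 349, 47.9 and 214. So the member row was high in control 1 and TAA 3 and the second in TAA+celecoxib 1 and 3. With the 3 rows of L7a summed, the SD over libraries was 0.51 on the log2 scale against 0.83 for the member row. Rps27a, which makes S27a fused to ubiquitin, gave 1707, 1017 and 913 CPM in control, 1063, 820 and 242 in TAA and 1803, 1004 and 590 in TAA+celecoxib. Its second row gave 498, 509 and 431, then 325, 396 and 802, then 617, 358 and 812, with its 2 highest values in the libraries where the first row had its 2 lowest, TAA 3 and TAA+celecoxib 3. Summed, the S27a rows had an SD of 0.39 against 0.86. Sums over all rows of each protein left the family's medians at -0.32, 0.23 and -0.10.

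The smallest p of the TAA comparison lay in a row of P2, the partner of P1 in the stalk. The row LOC100911575, at 1:214428526-214430515, and the member row Rplp2, at 1:213991620-213993609, are both 1990 bases long. Both passed the check on neighbouring genes, with 13 and 4 neighbours shared with the RefSeq gene. LOC100911575 stood at 178, 144 and 285 CPM in control, 13.1, 16.4 and 9.61 in TAA and 28.3, 7.57 and 23.6 in TAA+celecoxib. No library of either treated group came near a control. Its log2 fold change of -3.96 (SE 0.497) in TAA against control had the smallest edgeR p of all 15954 genes, 2.51e-05, with an adjusted p of 0.325. Against control TAA+celecoxib had -3.35 (SE 0.481, adjusted p = 0.566), again the smallest p, and against TAA it had 0.61 (SE 0.454). DESeq2 called both differences from control, with adjusted p = 6.34e-15 and 4.03e-10. In edgeR fits that each left out 1 library, the adjusted p for TAA against control ran from 0.031, without TAA+celecoxib 2, to 0.938, and the log2 fold change from -4.15 to -3.63. The larger P2 row, LOC498555, did not show the gap: it gave 351, 196 and 216 CPM in control, 180, 178 and 197 in TAA and 470, 174 and 240 in TAA+celecoxib. The 4 P2 rows together gave 552, 352 and 516 CPM in control, 205, 208 and 215 in TAA, and 522, 190 and 274 in TAA+celecoxib. The Rplp2 row itself had 0 to 0.723 CPM in every library.

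L35a showed a similar case. The member row Rpl35a, not at the RefSeq locus, stood at 28.7, 20.5 and 16.6 CPM in control, 17.4, 34.1 and 6.16 in TAA and 12.3, 3.51 and 7.39 in TAA+celecoxib, each of the last 3 below all controls. The log2 fold change against control was -1.5 (SE 0.611, edgeR adjusted p = 0.911). A row named Rpl35al1 stood at 19.7, 20.5 and 12.5 CPM in control, 0.142, 3.29 and 6.32 in TAA and 0, 0 and 0.0564 in TAA+celecoxib. For that row DESeq2's adjusted p was 2.04e-07 for TAA+celecoxib against control and 0.0048 against TAA, and edgeR's was 0.566 and 0.890. Without TAA 1 edgeR's adjusted p fell to 0.013 and 0.033, and on the 6 libraries of control and TAA+celecoxib it was 0.027. Outside these, no fit run gave the row Rpl35al1 an adjusted p under 0.05 in any comparison. Both rows, LOC100911575 and Rpl35al1, were singled out after their values were seen, and whether such gaps come with the treatment, with the animals' genomes or with how reads were assigned among copies was not tested.

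**Figure D5:**
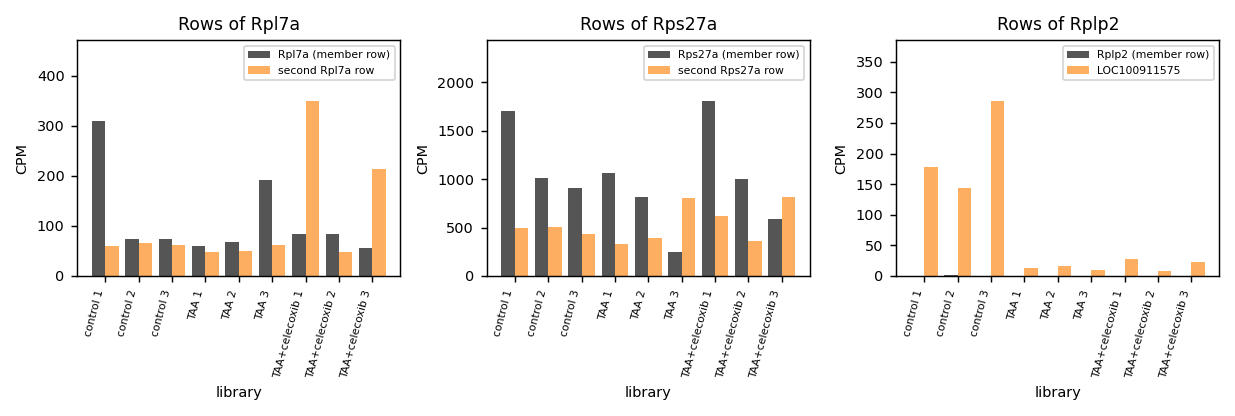
CPM per library of the member row (grey) and another row of the same protein (orange) for L7a, S27a and P2. For P2, LOC100911575 stands at 144 to 285 CPM in the 3 control libraries and at 7.57 to 28.3 in the other 6, and for L7a and S27a the rows trade places between libraries.

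Other genes of the pathway were read from lists. Translation factors and partners known for the same tract (18 of 20 tested) had medians of -0.12, 0.19 and 0.02, with 0 of 18 called in any comparison. In TAA against control 15 were fitted lower, Eef1b2 and Eef1g of elongation factor 1 without overlap (-0.37, SE 0.280, and -0.25, SE 0.189), and 3 higher. Groups did not overlap for 2 of the 18 on the lower and 1 on the higher side, against 7.89% and 6.94% of all genes. Tpt1, one of the classic tract messages, stood at 4683, 3768 and 3040 CPM in control, 2835, 3209 and 2652 in TAA and 4324, 2690 and 3545 in TAA+celecoxib. Eif3a, a scaffold of initiation factor 3, was higher in each TAA library, with control and TAA values of 351, 365 and 356 against 425, 427 and 392 CPM (0.21, SE 0.102). Pabpc1, which binds poly(A) tails, stood at 1413, 1185 and 1501 CPM in control, 1479, 1554 and 1627 in TAA and 2153, 2106 and 1705 in TAA+celecoxib. All 3 TAA+celecoxib values of Pabpc1 lay above the other 6, with a log2 fold change of 0.54 (SE 0.149, edgeR adjusted p = 0.911) against control.

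Genes of RNA polymerase I and ribosome assembly (51 of 52 tested) had medians of -0.0036, 0.07 and 0.07, with 0 called. Polr1e, a polymerase I subunit, stood at 21.9, 17.7 and 19.3 CPM in control, 12.1, 13.2 and 13.5 in TAA and 21.6, 14.7 and 16.7 in TAA+celecoxib. Its TAA values lay below all others (-0.60, SE 0.176, adjusted p = 0.788 against control). Rrn3, the initiation factor of polymerase I, stood at 21.4, 24.2 and 25.5, then 23.2, 22.0 and 29.5, then 29.9, 40 and 31.3 CPM, with a log2 fold change of 0.51 (SE 0.168) against control. Nhp2 was at 44.8 CPM in TAA 1 and at most 0.753 in the other 8.

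Of the upstream regulators, 22 of 23 were tested, with medians of 0.02, 0.06 and 0.02 and 0 called. In TAA against control 13 were fitted higher and 9 lower. Groups did not overlap for 3 of the 22 in each direction, against 6.94% of all genes higher and 7.89% lower. Eif4ebp1, the mTOR target that represses cap-dependent translation, stood at 37, 42.8 and 37.3 CPM in control, 45.2, 42.2 and 43.6 in TAA and 30.4, 34.2 and 32.4 in TAA+celecoxib. All 3 TAA+celecoxib values lay below the other 6 (-0.43 against TAA, SE 0.108, edgeR adjusted p = 0.890). Mycl gave 71.3, 72.5 and 60.6 CPM in control and 36.0, 45.6 and 48.7 in TAA (-0.65, SE 0.215), and Myc gave 102, 114 and 99.6 against 76.7, 92.8 and 82.1. On the higher side, Tsc1, a brake on mTOR, gave 21.7, 31.1 and 32.3 CPM in control and 35.7, 36.6 and 41.1 in TAA (0.41, SE 0.195). Mxd1, an antagonist of MYC, gave 57.0, 76.3 and 70.7 against 123, 67.8 and 120 (0.61, SE 0.281), with overlap. Targets of p53 (17 of 20 tested) had medians of -0.04, -0.08 and -0.08 with 0 called, Cdkn1a among them at 17.9, 14.4 and 12.3 CPM in control, 10.2, 8.90 and 11.7 in TAA and 12.5, 8.77 and 7.95 in TAA+celecoxib. Mitochondrial ribosomal protein genes (74 of 75 tested) had medians of -0.11, 0.01 and -0.07, and 0 were called. None of the 16 listed snoRNA host genes was tested.

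The members with a tract at or near the start did not stand far from those without in spread or fold change, but had a higher median level. Among tested members at their RefSeq locus, the 32 with a tract had a median SD of 0.387 and a median level of 1651 FPKM, and the 23 without had 0.344 and 1154. Their median log2 fold changes were -0.36 and -0.32 in TAA against control, 0.29 and 0.23 in TAA+celecoxib against TAA, and -0.09 and -0.11 in TAA+celecoxib against control. These are descriptions with no test, and the genes of both sets share the 9 libraries.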

How the data were processed

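For 9 libraries the authors deposited whole-number counts and FPKM values by gene. The aligner HISAT2 2.0.5 and the assembly mRatBN7.2 are named in the submitters' processing notes, but the file coordinates could not be matched to that assembly. No source used here gives the counting tool, strand setting or treatment of multiply mapped reads, so copies and overlapping genes may share reads. Counts were fitted with edgeR 4.0.16 in R 4.3.3 (TMM, filterByExpr with minimum count 10 and total 15, quasi-likelihood test by group over all 9 libraries, 15954 genes) with Benjamini-Hochberg adjustment over all of them, 2-sided. CPM used TMM library sizes, and log2 CPM a prior count of 2. The common biological coefficient of variation was 0.311. Alternatives were DESeq2 1.42.0, limma 3.58.1 (voom), other scalings and filters, 6-library fits, a replicate block and leaving out libraries; edgeR was tested on simulated data. Fits scaled without ribosomal proteins, with rows summed, at RefSeq loci only and without control 1 and TAA+celecoxib 1 were added after seeing the data. Named genes were, per comparison, the 6 smallest p and the 3 largest differences each way, plus the 6 highest and 4 lowest FPKM, the 4 largest and smallest SDs, and stalk, 5S and paralogue genes. The labels give no reason to pair libraries by number. Deviations from group means of same-numbered libraries correlated at 0.47, 0.18 and 0.34 between control and TAA+celecoxib. Between TAA and the other groups they ran from -0.21 to 0.24. Differently numbered libraries reached 0.22 (TAA 3 with TAA+celecoxib 2). The main fit took no libraries as paired, and the replicate block was run only as an alternative. The members and lists were chosen with earlier results of these data known. Promoter windows came from RefSeq (GRCr8). The values of 1 member, included in all counts and medians, are not reported here.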

Additional observations from a re-analysis of the deposited data

How the results depend on the processing

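No ribosomal protein gene among the members was called in any comparison under any fit run, including DESeq2, limma-voom, other scalings, no filter and the fits without 1 library. The count of all genes called was 0 in the main edgeR test and 50, 22 and 26 by DESeq2 for TAA against control, TAA+celecoxib against TAA and TAA+celecoxib against control. With edgeR on the 6 libraries compared it was 1 for TAA+celecoxib against control, and without 1 library each it ran from 0 to 1, 0 to 3 and 0 to 2; the causes were not tested. The members' median log2 fold change, leaving out 1 library, ran from -0.41 to -0.18, from -0.079 (reversed, without TAA+celecoxib 1) to 0.40, and from -0.42 to 0.079 (reversed without TAA+celecoxib 2, and 0.02 without control 1). Without control 1 and TAA+celecoxib 1 together the medians were -0.19, -0.0758 (reversed) and -0.26. Scaled by library totals alone, members without overlap numbered 31 lower and 0 higher in TAA against control (9.31% and 5.41% of all genes) and 1 higher in TAA+celecoxib against control (3.51%). With the replicate block the medians were -0.31, 0.17 and -0.14 and the block changed no call. Of 684 values of 38 named genes per comparison, 12, 48 and 59 had another sign than in the main fit. Group shares of counts moved by less than 1 SD. Depth was ample for most members, but Rpl3l, Rpl38, Rplp2 and Rps10l1 had 238, 202, 45 and 56 counts in all.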
